A study of Mus musculus with 3 samples.

Results

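CD8 T cells are the lymphocytes that read peptides on MHC class I molecules and can kill the cells that show them. They were followed here in the liver of female BALB/c mice with or without an orthotopic 4T1 tumour. Members were droplet barcodes with at least 200 detected genes and at most 20% mitochondrial UMIs (unique molecular identifiers, each standing for 1 captured transcript). They also held 2 or more UMIs of Cd3d, Cd3e, Cd3g and Trac together and 1 or more of Cd8a or Cd8b1, with 0 UMIs of Cd4, Cd79a, Siglech and Clec4f. The rule found 303 members among 20913 kept barcodes, namely 116 of 4734 control barcodes, 91 of 5509 from day 4 and 96 of 10670 from day 21.

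Non-parenchymal cells of perfused, dissociated livers were profiled with 10x 3' v2 chemistry, 1 library per group. The groups are a control given PBS at the orthotopic site, and mice given 4T1 breast cancer cells, a line that grew out of a BALB/c mammary tumour, for 4 or for 21 days. Injection was at 8 weeks of age; the labels give 8 weeks for the control and day 4 and 11 weeks for day 21, so age, library handling and tumour time cannot be told apart. The number of mice behind each library and the collection day of the control are not stated in the labels. With 1 library per group no difference between libraries was tested, and every interval given between libraries is a 95% interval that covers counting error only.

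CD8 is a surface co-receptor made of a Cd8a chain paired with Cd8b1, or of Cd8a chains alone. Naive CD8 T cells circulate between blood and lymph nodes under the guidance of CCR7 and other homing molecules. After activation they lose them and make granzymes, perforin and chemokines, and some settle in the liver, where CXCR6 helps to hold them in the sinusoids. In mice, some gamma delta T cells and other unconventional T cells of the liver also carry Cd8a.

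The T cell part of the label was described on a gene that the rule did not use, in members and in a B cell gate. That gate excludes the CD3 and Trac UMIs that members must hold. The contrast was thus largely set by the gates, and it does not tell CD8 T cells from other T cells. Trbc2, a constant segment of the T cell receptor beta chain, was detected in 94, 95.6 and 89.6% of members in the control, day 4 and day 21, against 0.625, 0.966 and 0.348% of barcodes in a B cell gate (2 or more UMIs of Cd79a, Cd79b and Ms4a1, none of the CD3 genes, Trac, Siglech or Clec4f). Of the 3 markers given with the rule, Cd3e was detected in 86.2, 87.9 and 62.5% of members, Cd8a in 69, 78 and 63.5% and Cd8b1 in 84.5, 74.7 and 70.8%, which describes the choice and is no finding. Both CD8 genes lie side by side on chromosome 6 of GRCm38, Cd8b1 at chr6:71322788-71337494 and Cd8a at chr6:71373427-71379173, both on the plus strand. Members just inside the rule, with exactly 2 T cell UMIs, numbered 3, 2 and 9, and those with exactly 1 CD8 UMI 16, 14 and 37. Just outside it, 1, 1 and 9 barcodes had 1 T cell UMI, 5, 3 and 4 held a Cd4 UMI beside a CD8 UMI, and 387, 302 and 874 T cell barcodes had neither CD4 nor CD8 UMIs.

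Depth and RNA of other cells differed between the libraries, and their part in the differences below was not tested. Members held a median of 3969, 3825 and 2208 UMIs in the control, day 4 and day 21, and their counts summed to 503322, 423001 and 292972. By limits on 7 groups of marker genes, chosen after the data had been seen, 7, 7 and 18 members carried the RNA of a second lineage. They held 8.85, 18.6 and 40.3% of all CD8 T cell UMIs, so at day 21 a minority of barcodes supplied much of the summed RNA. The doublet caller Scrublet marked 4, 3 and 7 members. At day 21, 11 members passed the myeloid limit and 7 the neutrophil limit, against 0 of either in the control, where all 7 such barcodes were endothelial. Free RNA was also present: the neutrophil gene S100a8 was detected in 0.862, 1.10 and 80.2% of members and in 0, 2.90 and 80.1% of B cell barcodes. The hepatocyte gene Alb was detected in 73.3, 72.5 and 18.8% of members and 73.1, 70.05 and 21.4% of B cell barcodes. Values below are therefore given for the members without the second-lineage barcodes, named the cleaned set (109, 84 and 78 barcodes with 458754, 344477 and 174822 UMIs), and values over all members are given where they are named as such. No member barcode sequence occurred in more than 1 library.

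CD8 T cells made up a smaller share of the kept barcodes in both 4T1 libraries. The share was 2.45% (2.03 to 2.93) for the control, 1.65% (1.33 to 2.02) at day 4 and 0.9% (0.729 to 1.10) at day 21 (exact binomial intervals). The ratio to control was 0.367 (0.281 to 0.480) at day 21 and 0.674 (0.514 to 0.885) at day 4. Neutrophils were far more frequent in the day 21 library, with 0.866, 2.67 and 31% of kept barcodes in the neutrophil gate, and outside that gate the day 21 ratio was 0.527 (0.403 to 0.689). Among T cell barcodes the CD8 members made up 17.4% of the control, 16.9% at day 4 and 8.82% at day 21. These T cell barcodes include the 387, 302 and 874 with neither CD4 nor CD8 UMIs. Of those, 10, 19 and 519 carried the RNA of a second lineage by the same limits. Their part in the lower day 21 share of T cells was not tested. The number of T cell UMIs per member differed as well, with medians of 11, 12 and 5. Thinning to 1000 UMIs left 4257, 4947 and 9531 barcodes, and dropped 0, 0 and 2 members as too shallow. With these thinned barcodes gated again, the share of T cells was 9.64% for the control, 12.2% at day 4 and 9.13% at day 21, with overlapping intervals. The thinned share of kept barcodes was 1.13% for the control, 1.07% at day 4 and 0.451% at day 21, a ratio to control of 0.4 (0.266 to 0.603) at day 21 and 0.950 (0.644 to 1.40) at day 4. With second-lineage barcodes left out of the members only, the unthinned ratios were 0.317 (0.238 to 0.424) at day 21 and 0.662 (0.5 to 0.878) at day 4. The kept barcodes they were divided by stayed the same. As 18 of 96 members were left out at day 21 and 7 of 116 in the control, this alone lowers the day 21 ratio. The day 21 share of kept barcodes was thus lower with all UMIs and after thinning, but its share of T cells was close to the control's after thinning. The day 4 share was close to the control's among T cells and after thinning.

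**Figure D1:**
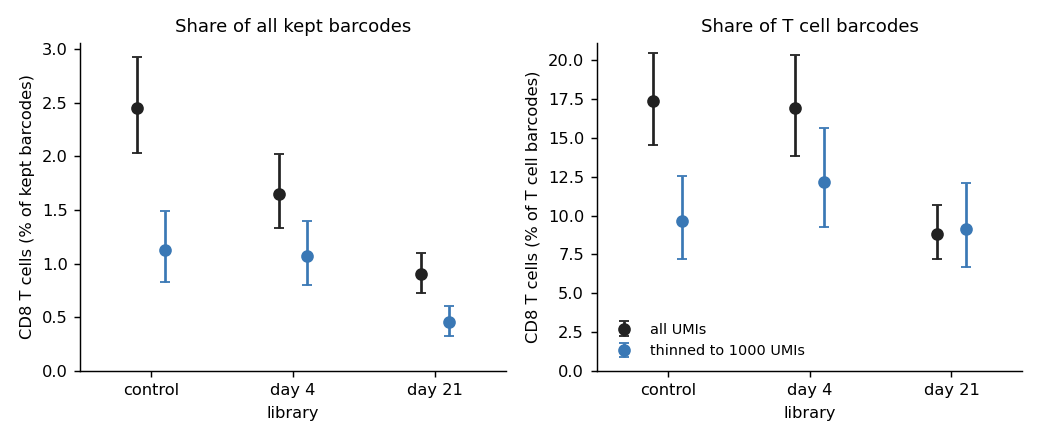
Share of CD8 T cells by library, as % of kept barcodes (left) and of T cell barcodes (right), with all UMIs (black) and with barcodes thinned to 1000 UMIs (blue); bars are exact 95% binomial intervals. The day 21 share of kept barcodes is lowest on both scales, while the thinned shares of T cells, 9.64%, 12.2% and 9.13%, overlap.

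The members were not of 1 kind. Most held transcripts of the homing genes Ccr7 (the lymph node chemokine receptor) or Lef1 (a transcription factor of naive T cells) and no Ccl5. Most of the others held Ccl5, a chemokine stored and released by memory and effector T cells. Few barcodes had an intermediate Ccl5 count: in the cleaned set 80, 55 and 57 barcodes had 0, 9, 3 and 3 had 1 or 2, 2, 2 and 5 had 3 to 5 and 18, 24 and 13 had more, up to 329, 121 and 54. A limit of 3 Ccl5 UMIs, set after seeing this spread, put 20, 26 and 18 of 109, 84 and 78 barcodes in a Ccl5-high group, or 18.3% (11.6 to 26.9), 31% (21.3 to 42) and 23.1% (14.3 to 34). Over all members the shares were 19% (12.3 to 27.3), 30.8% (21.5 to 41.3) and 22.9% (15 to 32.6). The day 4 share was the highest, and all these intervals overlap. Of the other barcodes, 89, 55 and 49 held at least 1 UMI of Ccr7 or Lef1, here called the homing group, and 0, 3 and 11 held neither. A Ccl5 UMI was found in 0.625, 1.45 and 0.581% of B cell barcodes (median 2896.5, 2960 and 1764 UMIs), far under its 26.7, 35.2 and 26% of members. After thinning, 17.4, 28.6 and 23.7% of the cleaned set held a Ccl5 UMI and 66.1, 51.2 and 50% a homing gene UMI. These groups are ranges of a gene's count and not cell types.

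**Figure D2:**
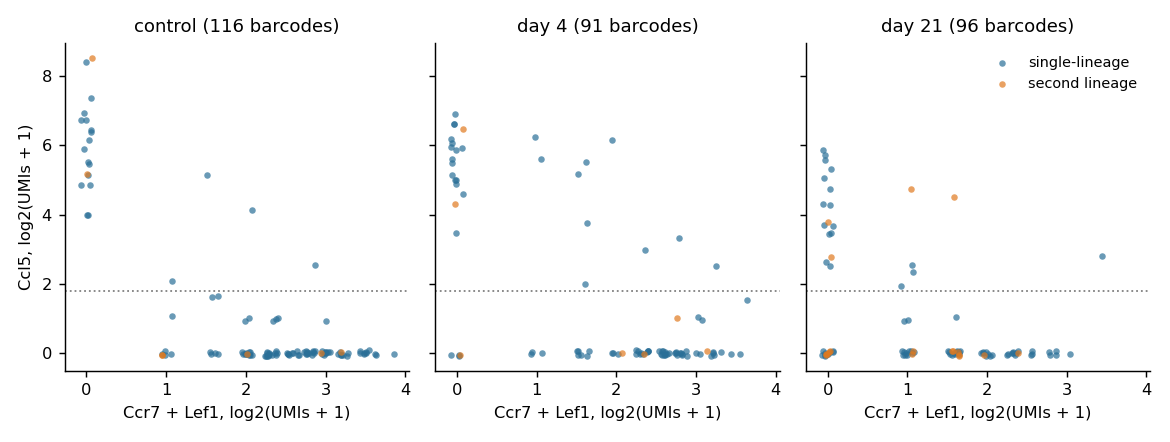
Ccl5 UMIs against the summed UMIs of Ccr7 and Lef1, both as log2(UMIs + 1), for every member in the control, day 4 and day 21; orange points carry a second lineage, the dotted line is the 3-UMI limit, and points are jittered. Most barcodes lie along the axis of the homing genes with 0 Ccl5, and 4, 10 and 4 Ccl5-high barcodes of the cleaned set also held a homing gene.

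The chain composition of CD8 followed the same split. In the homing group 86, 52 and 36 of 89, 55 and 49 barcodes held Cd8b1, against 6, 10 and 7 of 20, 26 and 18 in the Ccl5-high group. Barcodes with Cd8a and no Cd8b1 numbered 17, 20 and 27 in the cleaned set, and 14, 16 and 13 of them held Ccl5, against 15, 13 and 8 of the 92, 64 and 51 with Cd8b1. Tyrobp, an adaptor of activating receptors best known from NK and myeloid cells, was found in 10, 14 and 8 of the Cd8a-alone barcodes and in 3, 3 and 4 of those with Cd8b1. Gzmb, which encodes granzyme B, followed the same order with 11, 16 and 11 against 2, 4 and 4 barcodes. Lef1 ran the other way, in 3, 6 and 11 against 82, 54 and 30. At day 21 the Cd8a-alone barcodes had fewer of the killer genes and more Lef1, and their median depth was 1853 UMIs, against 3387 at day 4. Depth moves with the number of Cd8a-alone barcodes, and its part in it was not tested.

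Genes of the naive and recirculating state were measured in every library. In the cleaned set, of 16 measured genes of that list, 0 were 2-fold or more higher and 0 2-fold or more lower at day 4 than in the control, where 4.15% and 3.26% of all 4504 tested genes were. At day 21 the counts were 0 and 0 of 15, against 7.11% and 5.3% of 3828 genes. Nothing is read from these counts of 0, since the shares over all genes were low too. Over all members the median at day 21 was -0.28, and 1 of 15 were higher and 0 lower, beside 10.2% and 5.79% of all genes. A gene counted as measured with 20 or more UMIs over both libraries, and levels are CPM, the count scaled to the sum of all CD8 T cell UMIs of a library. Median log2 ratios were -0.13 at day 4 and -0.03 at day 21, beside 0.05 and 0.12 over all genes. Scaling by TMM factors in place of total counts moved every day 21 log2 ratio against control in the cleaned set by -0.22 and over all members by -0.14, which turns the day 21 median of all genes in the cleaned set below 0. Ccr7 had 528 (463 to 598), 377 (315 to 448) and 458 (363 to 569.5) CPM in the control, day 4 and day 21. Its log2 ratio to control was -0.48 (-0.80 to -0.17) at day 4 and -0.20 (-0.59 to 0.17) at day 21. Lef1 had 536, 528 and 418 CPM in the cleaned set, and 513, 459 and 279.9 CPM over all members, with the day 21 value lowest in both.

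Gzma, Gzmb and Prf1 were 2-fold or more higher at day 4 in the cleaned set. Gzma (granzyme A, a serine protease of killer lymphocytes, chr13:113093825-113100981, minus strand) had 180, 459 and 195 UMIs, or 392 (337 to 454), 1332 (1213 to 1460.1) and 1115 (964 to 1283) CPM, in the control, day 4 and day 21. Its log2 ratio was 1.76 (1.51 to 2.02) at day 4 and 1.51 (1.21 to 1.81) at day 21, each against control. These UMIs sat in few cells, 13, 16 and 9 barcodes, and without the barcode richest in Gzma in each library the ratios were 2.12 and 1.66. Most of these barcodes held Cd8a alone. Gzma was found in 9, 14 and 8 of the 17, 20 and 27 Cd8a-alone barcodes, and in 4, 2 and 1 of the 92, 64 and 51 with Cd8b1. Detection among barcodes with Cd8b1 was thus not higher in the 4T1 libraries. Gzmb had 351 (299 to 409.5), 827 (734 to 929) and 452 (358 to 563) CPM, 1.24 (0.95 to 1.53) at day 4 and 0.37 (-0.04 to 0.76) at day 21 as log2 ratios to control, so only the day 4 value passed 2-fold. Prf1, which encodes the pore-forming protein perforin, had 14, 27 and 10 UMIs and a day 4 log2 ratio of 1.34 (0.38 to 2.41), against 0.97 over all members. Nkg7, a granule membrane protein, had 593, 993 and 784 CPM. Of 10 measured cytotoxic genes 3 were 2-fold or more higher (Gzma, Gzmb and Prf1) and 1 lower (Serpinb9, the inhibitor by which killer cells resist granzyme B, 18, 6 and 8 UMIs) at day 4 against control, beside 4.15% and 3.26% of all genes. Over all members 2 of 10 were higher and 0 lower, beside 5.4% and 3.57% of all genes. At day 21, 2 of 10 were higher (Gzma and Id2, a regulator of effector T cells that is under 2-fold with TMM scaling) and 0 lower, beside 7.11% and 5.3% of all genes. Over all members 2 of 11 were higher and 0 lower at day 21, beside 10.2% and 5.79% of all genes. The list medians were 0.56 at day 4 and 0.39 at day 21. Ifng, the gene of interferon gamma, had 4, 6 and 2 UMIs over all members, too few for a comparison.

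Within the Ccl5-high group Gzma had 1738, 4085 and 4824 CPM in the control, day 4 and day 21, with a log2 ratio of 1.47 (1.17 to 1.77) at day 21 and 1.23 (0.98 to 1.49) at day 4 against control. Gzmb there had 1554, 2542 and 1879.98 CPM. The group held 3, 1 and 1 barcodes with 3 or more UMIs of cycle genes, and those held 40861, 12712 and 5648 of its 102984, 112106 and 40426 UMIs. In an alternative chosen after seeing the data, these barcodes were left out. Gzma then had 2753, 4427 and 4486 CPM and smaller log2 ratios of 0.70 (0.38 to 1.03) at day 21 and 0.68 (0.43 to 0.95) at day 4 against control, both under 2-fold. Gzmb then had 2254, 2646 and 1380.2 CPM, with -0.70 (-1.21 to -0.22) at day 21 and 0.23 (-0.07 to 0.54) at day 4, so its order at day 21 and in the control turned. Cxcr6 kept log2 ratios of 2.32 (1.23 to 3.65) and 1.52 (0.52 to 2.80) and Xcl1 2.17 (1.33 to 3.13) and 1.17 (0.39 to 2.10) without them. Ccl5 ran opposite, at 13468, 10749 and 8856 CPM with the cycling barcodes included and 20862, 11097 and 9374 CPM without them. Its log2 ratios to control without them were -1.15 (-1.33 to -0.98) at day 21 and -0.91 (-1.03 to -0.79) at day 4. In the control, 1 barcode alone held 329 of the 1387 Ccl5 UMIs. Since Ccl5 defined the group, its level there is a description.

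Cxcr6, the receptor that tethers lymphocytes to CXCL16 on liver sinusoids, and Xcl1, a chemokine that attracts cross-presenting dendritic cells, were the leading higher genes at day 21 in the cleaned set. Cxcr6 (chr9:123806475-123811760, plus strand) had 23, 57 and 48 UMIs in 7, 19 and 19 barcodes, or 50.1 (31.8 to 75.2), 165 (125 to 214) and 275 (202 to 364) CPM. Its log2 ratio to control was 2.44 (1.71 to 3.24) at day 21 and 1.70 (1.0 to 2.49) at day 4. Over all members the ratios were 1.74 and 1.59, and Cxcr6 was detected in 6.90, 22 and 20.8% of members, against 0, 0.483 and 0.348% of B cell barcodes. After thinning it was detected in 3.45, 14.3 and 16% of members. The Ccl5-high group held most of these UMIs, with 6, 15 and 13 of its 20, 26 and 18 barcodes positive and 155, 446 and 742 CPM, while the homing group had 19.7, 13.3 and 27.1 CPM. Within the Ccl5-high group the share of Cxcr6-positive barcodes was thus higher in both 4T1 libraries than in the control, on few barcodes and without an interval. The make-up of the group differed too, with 5, 13 and 3 of its barcodes holding 3 or more UMIs of gamma delta constant genes. The part of this in the Cxcr6 share was not tested. CD4 T cells, gated in the same way by Cd4 in place of CD8 genes, had log2 ratios of 0.68 at day 21 and 1.26 at day 4. Ratios in CD4 T cells, here and below, were taken over all CD4 T cell barcodes. They thus include 6, 9 and 8 second-lineage barcodes among 160, 142 and 115, unlike the cleaned set of CD8 T cells beside them.

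Xcl1 (chr1:164931644-164935527, minus strand) had 24, 60 and 43 UMIs in 7, 14 and 10 barcodes, or 52.3 (33.5 to 77.8), 174 (133 to 224) and 246 (178 to 331) CPM. The log2 ratio to control was 2.22 (1.48 to 3.02) at day 21 and 1.72 (1.03 to 2.48) at day 4, and 24, 60 and 41 of its UMIs lay in Ccl5-high barcodes. Cd160, a receptor of killer lymphocytes that binds HVEM and MHC class I molecules, had 50.1 (31.8 to 75.2), 159.7 (120.3 to 208) and 160.2 (106 to 231) CPM with 1.67 (0.83 to 2.54) at day 21 and 1.65 (0.94 to 2.44) at day 4. In CD4 T cells the Cd160 ratios were -0.19 and -0.05. Tnfsf8, the ligand of CD30, had 8, 26 and 18 UMIs and log2 ratios of 2.51 (1.29 to 3.97) at day 21 and 2.05 (0.93 to 3.47) at day 4, without any barcode holding more than 3 UMIs. Of the 8 measured chemokine and cytokine genes, 4 were 2-fold or more higher at day 21 than in the control (Ccl4, Xcl1, Il16 and Tnfsf8) and 0 lower, with a median of 0.91, beside 7.11% and 5.3% of all genes. Over all members 4 of 9 were higher and 2 lower, beside 10.2% and 5.79% of all genes. In the liver residency list 1 of 8 was higher at day 21 (Cxcr6) and 1 lower (Rgs2, a regulator of G protein signalling, with a log2 ratio of -1.55), beside 7.11% and 5.3% of all genes, while over all members 4 of 12 were higher and 1 lower (10.2% and 5.79% of all genes). Itga1, the collagen receptor CD49a of resident cells, had 76.3, 154 and 109 CPM, and Cd69, an activation and retention marker, had 181, 136 and 143 CPM with intervals at day 21 and in the control that overlap.

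**Figure D3:**
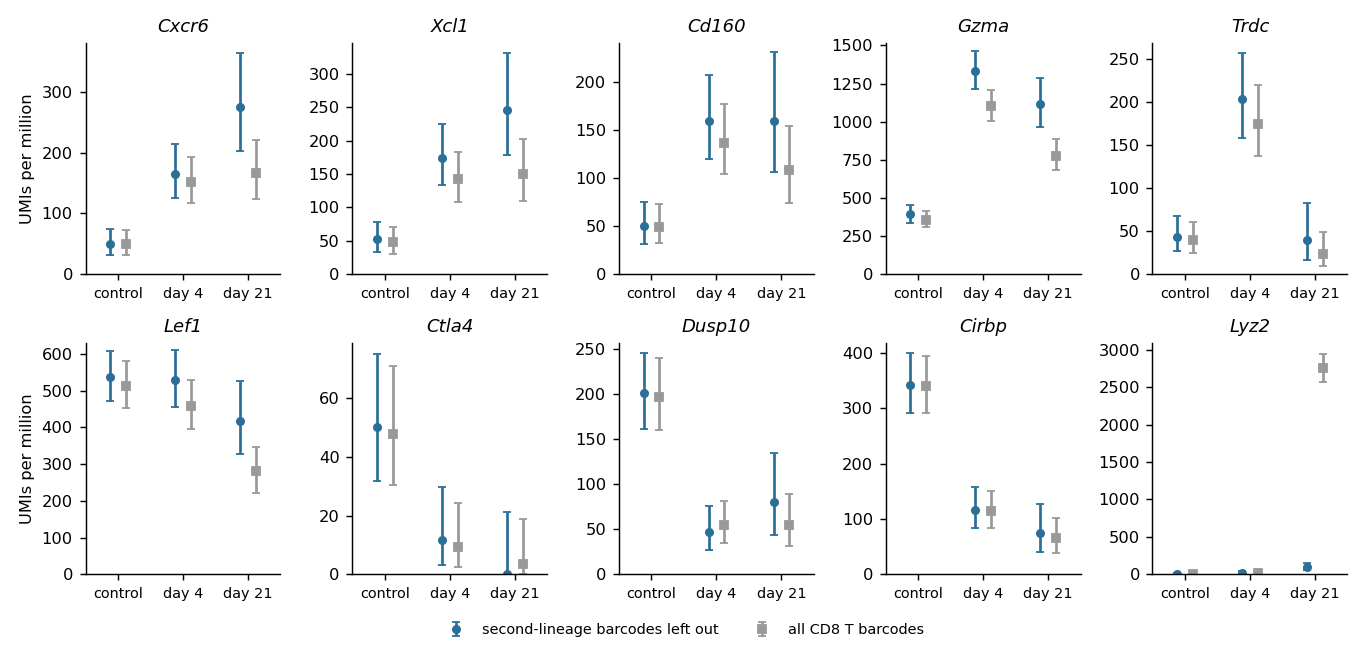
Level of 10 genes in CD8 T cells by library, in CPM of the summed counts, over the cleaned set (blue circles) and over all members (grey squares); bars are exact 95% Poisson intervals. Cxcr6, Xcl1, Cd160 and Gzma lie higher at day 4 and day 21 than in the control in both sets, Dusp10 and Cirbp lower, while Lyz2 has 2751 CPM at day 21 over all members and 97.2 in the cleaned set.

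The upstream sequences of Cxcr6, Xcl1 and Gzma are shown because these genes were higher in both 4T1 libraries. All 3 were detected together in 3, 8 and 5 of the 20, 26 and 18 Ccl5-high barcodes. Each is the 250 bases before the transcription start on the gene's own strand, from RefSeq on GRCm38.p6, at chr9:123806227-123806476 (plus), chr1:164935523-164935772 (minus) and chr13:113100982-113101231 (minus). Capitals mark the letters of 3 motifs searched on both strands, Runx (TGTGGT or ACCACA), T-box (GGTGTGA or TCACACC) and TCF/LEF (CTTTGA or TCAAAG).
Cxcr6: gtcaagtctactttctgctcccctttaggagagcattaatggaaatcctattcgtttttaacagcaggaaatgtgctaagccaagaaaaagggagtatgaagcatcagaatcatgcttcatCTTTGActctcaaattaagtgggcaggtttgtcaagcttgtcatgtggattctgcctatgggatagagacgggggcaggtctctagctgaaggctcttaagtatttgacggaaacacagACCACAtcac
Xcl1: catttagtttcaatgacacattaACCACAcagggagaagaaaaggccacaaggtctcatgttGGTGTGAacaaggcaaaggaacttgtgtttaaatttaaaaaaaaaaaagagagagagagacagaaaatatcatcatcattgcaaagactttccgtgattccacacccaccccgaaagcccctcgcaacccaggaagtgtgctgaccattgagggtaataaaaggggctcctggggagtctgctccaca
Gzma: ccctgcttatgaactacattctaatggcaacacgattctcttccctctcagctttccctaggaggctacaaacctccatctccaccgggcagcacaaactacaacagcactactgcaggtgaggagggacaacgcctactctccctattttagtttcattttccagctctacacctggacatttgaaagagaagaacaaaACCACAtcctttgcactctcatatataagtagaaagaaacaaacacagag
Each window held 1 Runx match, Xcl1 also held 1 T-box match and Cxcr6 1 TCF/LEF match, none overlapping another. A Runx match was present in 7 of the 17 cytotoxic genes with a promoter entry in 2 of 9 liver residency genes and in 0 of 14 naive genes, against 15.9% of 27025 genes with at least 1 such window. T-box matches were in 3 cytotoxic, 1 liver residency and 1 naive genes (3.84% of all), and TCF/LEF matches in 1, 3 and 3 (15.8%). Such short matches are descriptions of letters and not binding sites.

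Gamma delta and innate-like T cell genes were higher at day 4 than in the control. Trdc, the constant segment of the delta chain (chr14:54142851-54148868, plus strand), had 20, 70 and 7 UMIs in 5, 12 and 5 barcodes, or 43.6 (26.6 to 67.3), 203 (158 to 257) and 40.04 (16.1 to 82.5) CPM in the control, day 4 and day 21. Its log2 ratio was 2.20 (1.49 to 3.02) at day 4 against control and -2.25 (-3.71 to -1.23) at day 21 against day 4. Tcrg-C1, a gamma chain constant segment, had 5, 26 and 1 UMIs and a log2 ratio of 2.68 (1.39 to 4.53) at day 4 against control. The gamma constant segments are near copies of each other, so counts of each alone are uncertain. Klre1, a killer cell lectin-like receptor also used to gate NK cells below, had 8, 30 and 3 UMIs with a day 4 ratio of 2.26 (1.16 to 3.66). Tyrobp had 124, 331 and 189 CPM with 1.41 (0.94 to 1.90). Of 8 measured genes of the gamma delta and innate-like list 6 were 2-fold or more higher at day 4 than in the control and 0 lower, median 1.60. All genes gave 4.15% and 3.26%. Over all members 6 of 9 were higher and 0 lower, beside 5.4% and 3.57% of all genes. The list is not particular to these cells. Against NK cells, 1 of 8 tested genes of the list was higher and 6 lower in CD8 T cells. The median log2 fold change was -2.76, beside 7.11% and 6.11% of all tested genes called higher and lower. At day 21 against day 4, 3 of 8 were lower and 0 higher, with 3.59% and 4.78% of all 3369 genes. Over all members 2 of 8 were higher and 5 lower, beside 7.05% and 4.53% of all genes. Barcodes with 3 or more UMIs over the gamma delta constant genes numbered 5, 13 and 3 in the Ccl5-high group and 0, 0 and 0 in the homing group. The rule asks for Trac or CD3 transcripts and not for an alpha beta receptor, so it admits such cells. Of the 17, 20 and 27 Cd8a-alone barcodes of the cleaned set, 17, 18 and 25 held the beta chain gene Trbc2. Trdc was found in 4, 10 and 3 of them and Tcrg-C1 in 4, 10 and 0. Requiring a Cd8b1 UMI turned the day 21 against day 4 ratios of Trdc and of Klra5, another killer cell lectin-like receptor, to positive values (given with the alternatives). Of the Cd8b1 barcodes of the cleaned set, only 2 at day 4 and 2 at day 21 held Trdc, and 0 and 0 held Klra5. The sign of these ratios therefore shows no rise at day 21.

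Inhibitory receptors gave few UMIs. Pdcd1 (PD-1) had 2, 1 and 1 UMIs over all members, Lag3 3, 4 and 3, Tigit 1, 0 and 0 and Havcr2 (TIM-3) 0, 2 and 0, so a change in these exhaustion genes was not detectable at this depth. Ctla4, the receptor that competes with CD28 for its ligands, had 24, 4 and 1 UMIs in 16, 2 and 1 members. In the cleaned set it had 23, 4 and 0 UMIs, which is at least 2.92-fold lower at day 21 than in the control against a floor of 3 counts in the library's sum, and the day 4 log2 ratio was -1.97 (-4.10 to -0.56). In CD4 T cells the Ctla4 ratios were 1.02 at day 21 and -1.41 at day 4. Of the 4 measured members of this list at day 21, 2 were 2-fold or more higher (Cd160 and Ikzf2, the factor Helios, which is under 2-fold with TMM scaling) and 1 lower (Ctla4), and over all members 1 of 6 were higher and 1 lower. In the memory-type list, 2 of 12 were higher (Xcl1 and Runx3, a transcription factor of the CD8 lineage, at 1.30) and 1 lower (Klrc2, an activating NKG2 receptor, 35, 20 and 2 UMIs), and over all members 3 of 14 were higher and 2 lower. All genes gave 7.11% and 5.3% in the cleaned set and 10.2% and 5.79% over all members.

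Several heat shock genes were higher at day 21. Of 10 measured heat shock genes 5 were 2-fold or more higher at day 21 than in the control and 0 lower, median 0.82, beside 7.11% and 5.3% of all genes. Over all members 4 of 10 were higher and 0 lower, median 0.83, beside 10.2% and 5.79% of all genes. In the cleaned set 1 was higher at day 4 (4.15% of all genes). The day 21 genes were Hsph1, Dnajb1, Dnaja1, Hsp90aa1 and Hspd1, of which Hsp90aa1 and Hspd1 are under 2-fold with TMM scaling. Hsph1, a co-chaperone of HSP70, had 14, 22 and 24 UMIs and a day 21 log2 ratio of 2.15 (1.16 to 3.23), beside 1.92 in CD4 T cells. Dnajb1, a J-domain co-chaperone, had 16, 9 and 20 UMIs and 1.70 (0.69 to 2.76), beside 1.65.

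Among glucocorticoid-responsive genes the medians were -0.53 at day 4 and -0.46 at day 21, with 2 of 12 2-fold or more lower at day 21 (Ddit4 and Chka, a choline kinase), beside 5.3% of all genes. Over all members the medians were -0.53 at day 4 and -0.85 at day 21, with 2 of 16 lower at day 4 and 5 of 15 at day 21, where 3.57% and 5.79% of all genes were. Txnip, a thioredoxin-binding regulator of glucose uptake, had 1554 (1442 to 1673), 1169.9 (1058 to 1289.9) and 892 (758 to 1044) CPM, a log2 ratio of -0.80 (-1.06 to -0.55) at day 21, beside -1.20 in CD4 T cells. Ddit4, an inhibitor of mTOR, had 40, 18 and 6 UMIs and -1.25 (-2.87 to -0.10).

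Type I interferon genes gave 3 of 15 higher at day 4 (Isg15, Xaf1 and Phf11b) and 0 lower (4.15% and 3.26% of all genes), and at day 21 0 higher and 3 of 11 lower (Ifi27l2a, Bst2 and Ifi208, beside 7.11% and 5.3% of all genes). Over all members, 3 of 17 were higher and 0 lower at day 4, beside 5.4% and 3.57% of all genes. At day 21, 1 of 14 was higher and 3 lower over all members, beside 10.2% and 5.79% of all genes. Ifi27l2a had 512 (449 to 582), 717 (630.4 to 812) and 246 (178 to 331) CPM in the cleaned set, -1.04 (-1.56 to -0.58) at day 21 against control, but 0.13 (-0.17 to 0.43) over all members. Isg15, a ubiquitin-like modifier, had 5, 16 and 6 UMIs and 2.00 (0.58 to 3.89) at day 4. Over all members the immediate early genes Jun and Egr1 were higher at day 4 than in the control, and 1 barcode held 101 of 111 Jun UMIs and 48 of 66 Egr1 UMIs. In the cleaned set Junb, an AP-1 subunit, had 464, 203 and 446 CPM with a log2 ratio of -1.19 (-1.60 to -0.80) at day 4. Jund, another AP-1 subunit, had 466, 269.97 and 194 CPM with -1.24 (-1.83 to -0.74) at day 21. Jun had 9, 5 and 5 UMIs in the cleaned set.

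**Figure D4:**
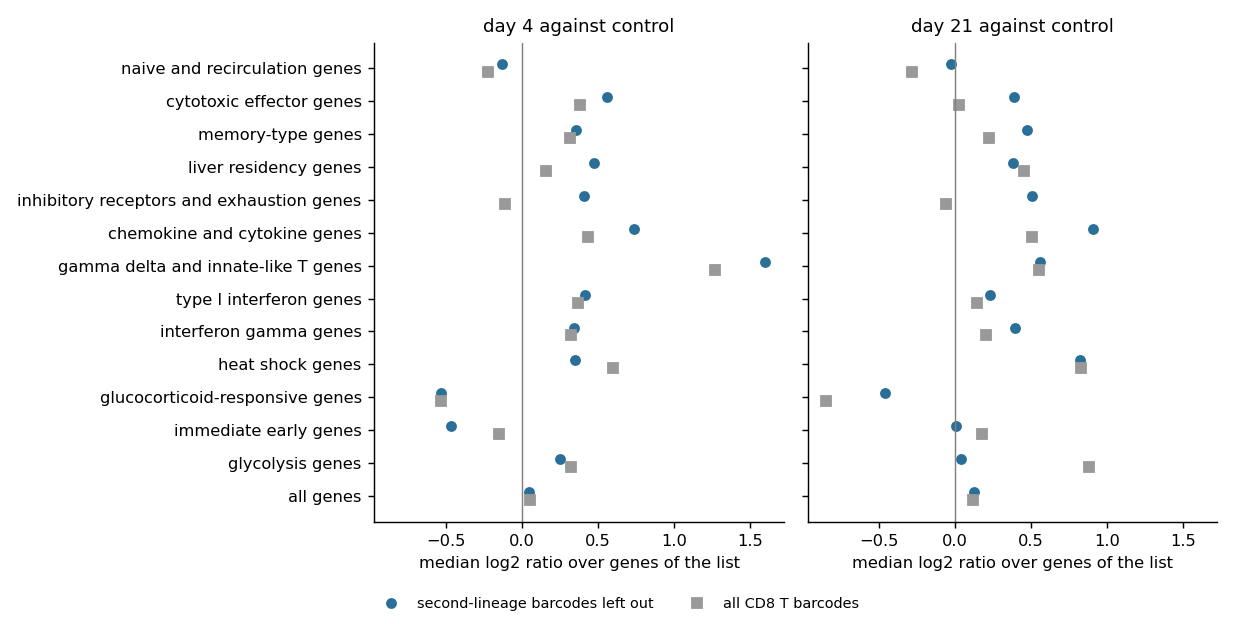
Median log2 ratio of CD8 T cell levels over the measured genes of 13 lists and over all genes, for day 4 against control (left) and day 21 against control (right), in the cleaned set (blue circles) and over all members (grey squares). Gamma delta and innate-like genes stand at 1.60 at day 4, heat shock genes at 0.82 at day 21, and the glycolysis median at day 21 is 0.04 in the cleaned set against 0.88 over all members.

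Cell cycle transcripts sat in few barcodes. Mki67, a marker of dividing cells, had 75, 12 and 22 UMIs in 3, 2 and 4 barcodes of the cleaned set, and 1 control barcode held 43 of the control UMIs. Barcodes with 3 or more UMIs over the cycle genes numbered 3, 2 and 4. Over all members, 9 of 17 G2/M genes were 2-fold or more higher at day 21 than in the control, where 10.2% of all 4819 genes were. In the cleaned set the count was 1 of 9, beside 7.11% of all 3828 genes, too near that share to read anything from. The count at day 21 thus differed with and without the second-lineage barcodes. At day 4 against control, 4 of 8 G2/M genes were 2-fold or more lower in the cleaned set (Mki67, Top2a, Birc5 and Hmgb2), beside 3.26% of all 4504 genes. There, 3 control barcodes held all control Mki67 UMIs.

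By size alone, 281 of 5205 tested genes were 2-fold or more higher and 186 lower in all members at day 4 against control (5.4% and 3.57%). At day 21 against control 493 of 4819 were higher and 279 lower (10.2% and 5.79%), and at day 21 against day 4, 322 of 4570 were higher and 207 lower (7.05% and 4.53%). The leading higher genes at day 21 over all members were myeloid: Prtn3 (proteinase 3 of neutrophil granules) with 0, 0 and 314 UMIs, 241 of them in 1 barcode, Lyz2 (lysozyme) with 3, 7 and 806, Spi1 (the myeloid factor PU.1) with 0, 13 and 40, then Clec4a2, Fcgr3 (an Fc receptor), Napsa, Ccr2 (a chemokine receptor of monocytes), Lst1, Ifitm3 and Lgals3 (galectin-3). In the cleaned set Lyz2 had 3, 6 and 17 UMIs and Fcgr3 1, 3 and 0. The second-lineage barcodes were chosen partly by Prtn3, Lyz2, Spi1 and Clec4a2, so their lower counts in the cleaned set is no finding.

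In the cleaned set the leading higher genes at day 21 against control were Cxcr6, Xcl1 and Hsph1, then Dynll1 (a dynein light chain) with 35, 76 and 58 UMIs and 2.11 (1.49 to 2.77), followed by Rnf115 (a ubiquitin ligase), Esyt2 (a tether of the endoplasmic reticulum), Dnajb1, Pfkp (a phosphofructokinase), Cd160 and Il16 (a chemoattractant of CD4 cells). The leading lower genes were Ncapd3 (a condensin subunit) with 39, 17 and 1 UMIs, Hist1h1e and Hist1h4d (histones), Epb41l4aos, Mettl1 (a tRNA methyltransferase), Cirbp, Ccz1, Skil (a repressor of SMAD signalling), Nrip1 and Frat2. Cirbp, a cold-inducible RNA-binding protein, had 342 (291 to 400.1), 116 (83 to 158) and 74.4 (39.6 to 127) CPM and log2 ratios of -2.15 (-3.14 to -1.39) at day 21 and -1.55 (-2.10 to -1.05) at day 4. CD4 T cells had -2.27 and -0.89. Nrip1, a nuclear receptor corepressor, had 61, 45 and 5 UMIs and -2.09 (-3.89 to -0.92) at day 21.

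At day 4 against control in the cleaned set, Tcrg-C1 and Trdc led the higher genes, followed by Pfdn6 (a prefoldin subunit), Rcbtb2, Tnfsf8, Nck1 (an adaptor at the T cell receptor), Ptpn6, Cxcr6, Trip4 and Cd160. Ptpn6, the phosphatase SHP-1 that dampens T cell receptor signalling, had 20, 50 and 21 UMIs and 1.71 (0.96 to 2.56). The lower genes were Dusp10, Brd1 and Baz2b (bromodomain proteins), Eif1ad, Ppp1r15a (which restores translation after stress), Pde4b (a cAMP phosphodiesterase), Rere, Cirbp, Hist1h4d and Crybg1. Dusp10, a phosphatase of the stress kinases p38 and JNK, had 201 (162 to 246), 46.4 (26.5 to 75.4) and 80.1 (43.8 to 134) CPM, a log2 ratio of -2.07 (-2.98 to -1.33) at day 4 and -1.28 (-2.25 to -0.51) at day 21, and it was lower in CD4 T cells too (-1.69 at day 4).

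Over all members the day 4 list had Egr1 at its head (2.91; 1.55 without the richest barcode of each library), then Tcrg-C1, Trdc, Pfdn6, Tnfsf8, Tesc, Phf11b, Smarcc2, Nudt19 and Rcbtb2. Its lower genes were Brd1, Dusp10, Cep164, Baz2b, Cirbp, Ppp1r15a, Snd1, Tet2, Numb and Cenpw. At day 21 the lower genes over all members were Rab11fip2, Cirbp, Gle1, Hist1h4d, Coq10b, Nrip1, Frat2, Lars2, Manbal and Hist1h1e. Between the tumour times, at day 21 against day 4, the cleaned set gave Racgap1, Crybg1, Fam46c, Kdm7a and Dnah8 as higher and Trdc, Nrip1, Eif2s1, Klra5 and Pglyrp2 as lower; over all members Prtn3, Lyz2, Clec4a2, Lst1 and Fcgr3 were higher and Trdc, Klra5, Arhgap5, Xaf1 and Utp18 lower.

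Against CD4 T cells of the same livers (160, 142 and 115 barcodes), 34 of 5461 tested genes were higher and 41 lower in CD8 T cells (0.623% and 0.751%). The test was edgeR quasi-likelihood on 3 pairs of library sums with the library as a term, at a Benjamini-Hochberg adjusted p under 0.05. These sums, like those against NK cells below, were taken over all members and not over the cleaned set. With second-lineage barcodes left out of both cell types, 141 of 4820 tested genes were higher and 115 lower. Ccl5 had a log2 fold change of 2.26 ± 0.10 (SE; adjusted p = 1.24e-06). Gzmb had 352, 688 and 290.1 CPM in CD8 T cells of the control, day 4 and day 21, against 28.8, 36.1 and 68.7 CPM in CD4 T cells, a log2 fold change of 3.51 ± 0.33 (SE; adjusted p = 0.000394). Cd7, a surface molecule of T and NK cells, had 274, 385 and 273 CPM in CD8 T cells of the control, day 4 and day 21, against 43.9, 54.1 and 28.9 CPM in CD4 T cells, 2.91 ± 0.19 (SE; adjusted p = 2.94e-05). Trdc had a log2 fold change of 2.76 ± 0.31 (SE; adjusted p = 0.00146), and Myb, a transcription factor of lymphocyte progenitors, 3.4 ± 0.51 (SE; adjusted p = 0.00968). Gzma had 358, 1104 and 778 CPM in CD8 T cells of the control, day 4 and day 21, against 1.37, 0 and 156 CPM in CD4 T cells, a log2 fold change of 4.91 ± 0.82 (SE; adjusted p = 0.0147). The Gzma value depended on single libraries: the log2 fold change was 3.65 without day 4 and 9.73 without day 21, and the adjusted p (edgeR) was 0.144 without the control and 0.282 without the library term. Without the library term the adjusted p was also 0.406 for Trdc, and without the control it was 0.0706 for Myb, while Trdc was not among the genes tested there. Cd244 (the receptor 2B4 of killer cells), Ms4a4c, Klra5, Fam241a and Actn2 completed the 10 highest. Without the library term the adjusted p (edgeR) was 0.115 for Cd244, 0.153 for Klra5 and 0.0709 for Actn2. Without the control it was 0.237 for Cd244, and Klra5 and Actn2 were not tested. Ms4a4c and Fam241a stayed under 0.05 in both.

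Lower genes included several of the helper list. Cd40lg, the ligand by which helper T cells license their partners, had 1, 1 and 2 UMIs in CD8 T cells and 1.99, 2.36 and 6.83 CPM in CD8 T cells of the control, day 4 and day 21, against 39.8, 69.4 and 105 CPM in CD4 T cells, a log2 fold change of -4.16 ± 0.43 (SE; adjusted p = 0.000608). Icos, a costimulatory receptor, had 13.9, 16.5 and 27.3 CPM in CD8 T cells of the control, day 4 and day 21, against 117, 126 and 137 CPM in CD4 T cells, -2.70 ± 0.25 (SE; adjusted p = 0.000394). Socs2, a suppressor of cytokine signalling, gave -3.59 ± 0.33 (SE; adjusted p = 0.000394) and Tnfrsf4 (OX40) -3.49 ± 0.46 (SE; adjusted p = 0.00445), with an adjusted p (edgeR) of 0.0619 without the library term. Pdlim4, Podnl1, St8sia6, Il2ra, Art2b and Ecm1 completed the 10 lowest, among them Il2ra, the IL-2 receptor alpha chain. Without the library term the adjusted p (edgeR) was 0.681 for Ecm1, 0.0837 for St8sia6 and for Art2b and 0.0555 for Pdlim4. Without the control it was 0.149 for Pdlim4, 0.115 for Art2b and 0.0804 for Il2ra, and Ecm1 and St8sia6 were not tested. Podnl1 stayed under 0.05 in both. Over all members, Cxcr6 had 49.7, 151 and 167 CPM in CD8 T cells of the control, day 4 and day 21, against 235, 562 and 376 CPM in CD4 T cells. It was thus lower in CD8 T than in CD4 T cells in every library, though higher in CD8 T cells of both 4T1 libraries than of the control. The log2 fold change against CD4 T cells was -1.68 ± 0.20 (SE, edgeR adjusted p = 0.00197), with an adjusted p (edgeR) of 0.224 without the library term. Of 14 tested helper and regulatory genes 8 were lower and 0 higher; of 12 cytotoxic genes 3 were higher and 1 lower. The calls rest on little residual spread, and without the control library 10 genes were higher and 10 lower, without the day 21 library 167 and 132.

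**Figure D5:**
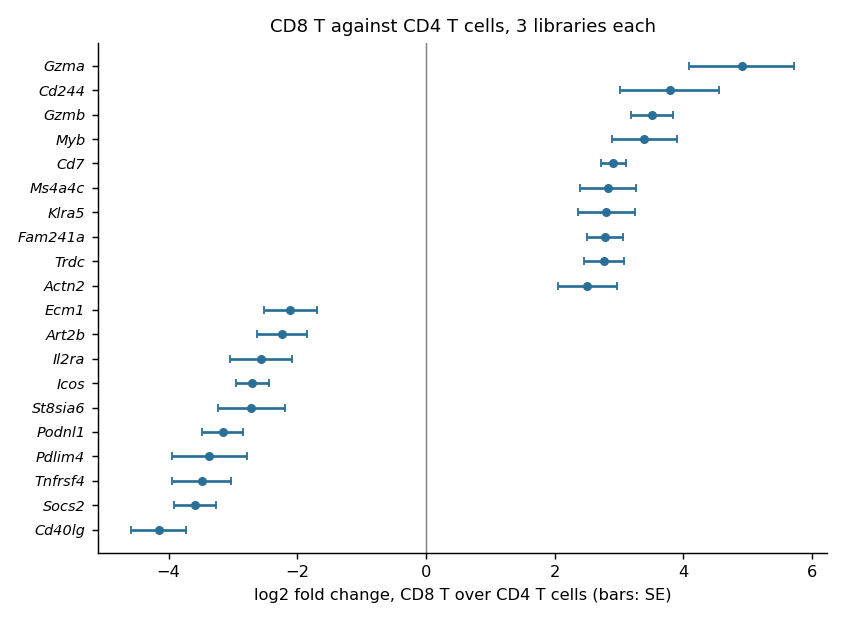
Log2 fold change of CD8 T over CD4 T cells, over all members, for the 10 highest and 10 lowest genes with an adjusted p under 0.05 (edgeR, 3 libraries each). Points are estimates and bars the standard error. Gzma stands at 4.91, a value that was 3.65 without day 4 and 9.73 without day 21, and Cd40lg at -4.16.

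Against NK cells (69, 57 and 61 barcodes with 2 or more UMIs of Ncr1, Klrb1c and Klre1 and no UMIs of the CD3 genes, Trac, Cd79a, Siglech or Clec4f), 269 of 3783 tested genes were higher and 231 lower in CD8 T cells (7.11% and 6.11%; the same edgeR test). Over all members, Ccr7 had 497, 329 and 317 CPM in CD8 T cells of the control, day 4 and day 21, against 0, 0 and 0 CPM in NK cells. With every NK sum at 0, Ccr7 was at least 76.6-fold higher in CD8 T cells, against a floor of 3 counts over the NK sums of the libraries together. Dapl1, a gene of naive T cells, was at 0 in all NK sums as well (at least 44.2-fold higher). The other higher genes were Tcrg-C2 (a gamma chain segment, at least 10.2-fold), Themis (a signalling protein of developing T cells), Cd5, Slfn1, Fam241a, Tdrp, Actn1 and Kcnn4. Lower genes were the NK protease Cma1 with 0, 0 and 0 CPM in CD8 T cells of the control, day 4 and day 21, against 365, 303 and 168 CPM in NK cells (at least 117-fold lower), then Serpinb9b (at least 62.2-fold lower), Rab27b, Klra3, Klrb1a, Adamts14, Klrg1, Klra9, Itga2 (CD49b) and Eomes. Eomes, a T-box factor of NK and memory cells, had 5.96, 4.73 and 30.7 CPM in CD8 T cells of the control, day 4 and day 21, against 276, 313 and 277 CPM in NK cells, a log2 fold change of -4.34 ± 0.38 (SE; adjusted p = 5.28e-07). Of 14 tested cytotoxic genes, 13 were lower in CD8 T than in NK cells, and of 13 naive genes 11 were higher. The NK gate needs NK receptor UMIs and excludes the CD3 and Trac UMIs that members must hold. The contrast of T cell and NK genes was thus in part set by the gates.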

How the data were processed

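Cells of 3 liver libraries were read as counts of UMIs per gene and barcode, deposited by the authors as filtered matrices. Per the file headers these counts come from Cell Ranger 3.1.0, and per the submitters' processing notes from the mm10 genome. The annotation and any filter on cells are not given in the sources used here. Both the members and the 32 gene lists were chosen with earlier results of these data known. The depth of each member set is given with the results. 

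Raw counts were summed per library over the members. With 1 library per group, log2 ratios of CPM (0.5 added to each sum) were given without a test for genes with 20 or more UMIs over both libraries, with exact 95% Poisson or binomial intervals; 2-fold was used as a rule of size. UMIs from PCR-amplified libraries carry counting error only into these intervals. Genes named by rank were the 10 highest and 10 lowest log2 ratios for each 4T1 library against control and 5 each for day 21 against day 4, with 30 or more UMIs, detection in 10% of members and a level no lower than 0.25 times that of the gated class with most; rule genes, mitochondrial, ribosomal, haemoglobin and immunoglobulin genes were left out, and 1 gene is not reported here. For CD8 T against CD4 T or NK cells, edgeR 4.0.16 was run on sums per library and cell type with the library as a term, since both cell types come from the same libraries; the 10 highest and 10 lowest log2 fold changes with an adjusted p under 0.05 were named. DESeq2 1.42.0 was an alternative. Doublets were marked with Scrublet in Scanpy 1.11.5 and kept. Detection was also given with each barcode thinned to 1000 UMIs, shallower barcodes left out. The steps were tested on simulated data. Other alternatives were a mitochondrial limit, other gates, filters on UMIs, TMM scaling, means of cell CPM and single libraries left out.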

Additional observations from a re-analysis of the deposited data

How the results depend on the processing

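With 1 library per group, differences between libraries have no replicate check. No paired analysis was possible because the groups compared share fewer than 2 replicate numbers. The ratio of CD8 T cell shares for day 4 against control was 0.974 among T cells and 0.950 after thinning. For day 21 against control it was 0.229 with a mitochondrial limit of 10%, 0.508 among T cells and 0.527 outside the neutrophil gate, and for day 21 against day 4 0.768 outside that gate. All ratios stayed below 1.

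Counts of genes 2-fold or more higher for day 4 against control, day 21 against control and day 21 against day 4 were 142, 255, 159 with 6 more lineage markers required at 0, 81, 121, 77 after thinning, 187, 272, 161 without second-lineage barcodes, 64, 127, 97 with 50 or more UMIs and 2452, 2601, 2383 with no filter on UMIs. At day 4, 183 were higher with the richest barcode of each gene left out. The lower genes numbered 62, 67, 69 after thinning, 43, 76, 48 with 50 or more UMIs and 1938, 1520, 2804 with no filter, and for day 21 against day 4 130 with the 6 markers and 121 without second-lineage barcodes. Fewer genes are tested under thinning and the higher limit.

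Genes higher in CD8 T than CD4 T cells numbered 145 with no filter, 7 with no replicate block (no library term), 59 without called doublets, 141 without second-lineage barcodes and 10 to 167 with each library left out. The lower genes numbered 17 with DESeq2, 151 with no filter, 12 with no library term, 13 after thinning, 115 without second-lineage barcodes and 10 to 132 with each library left out. Against NK cells DESeq2 gave 153 higher and 104 lower genes, thinning 177 and 133, no library term 135 lower, and leaving out each library 220 to 348 higher and 146 to 317 lower. The cause of these differences was not tested.

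Of 550 log2 ratios of named genes under the alternatives, 490 stayed within the counting interval of the reported ratio, 55 moved outside it and 5 changed sign. Those were Snd1 at day 4 after thinning (0.35), Fcgr3 without second-lineage barcodes (-0.19 at day 21 against control and -1.83 against day 4), and Trdc and Klra5 for day 21 against day 4 with a Cd8b1 UMI required (0.44 and 0.44). The Trdc and Klra5 values rest on few or no UMIs, so no direction is read from them. The second-lineage limits, the share outside the neutrophil gate the omission of the richest barcode and that of cycling barcodes were chosen after seeing the data.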

Other observations

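Genes of the cytoskeleton and of migration are given here as values. S100a6, a calcium-binding protein of activated T cells, had 183, 470.3 and 406 CPM in the control, day 4 and day 21, with log2 ratios to control of 1.15 (0.67 to 1.62) at day 21 and 1.36 (0.97 to 1.76) at day 4. Lgals1, which encodes galectin-1, had 196, 226 and 446 CPM and 1.19 (0.73 to 1.64) at day 21. Both were also detected in B cell barcodes, S100a6 in 5.31, 7.73 and 28.1% and Lgals1 in 7.81, 15.5 and 34.1%, most often at day 21, and the part of free RNA in these differences was not tested. Tmsb10, the actin-sequestering thymosin beta 10, had 3076 (2917 to 3240.5), 2581 (2414 to 2756) and 1344 (1178 to 1528) CPM and -1.19 (-1.40 to -0.99) at day 21, beside -1.18 in CD4 T cells. Of 23 measured genes of that list in the cleaned set, 2 were 2-fold or more higher at day 21 and 1 lower, beside 7.11% and 5.3% of all genes. At day 21, over all members 8 of 24 were higher and 1 lower, median 0.63, beside 10.2% and 5.79% of all genes.

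Of 18 measured genes of oxidative phosphorylation, 0 were 2-fold or more higher and 0 lower at day 21 in the cleaned set, and over all members 2 of 18 were higher and 0 lower, counts too near the shares of all genes to read anything from. Among interferon gamma genes, Irf1, a transcription factor induced by interferons, had 34, 20 and 26 UMIs and a day 21 log2 ratio of 1.01 (0.21 to 1.78), which is under 2-fold with TMM scaling. Rora, a nuclear receptor of effector and innate-like lymphocytes, had 38, 23 and 5 UMIs and -1.42 (-3.24 to -0.19) at day 21. Tapbpl, a chaperone that edits peptides on MHC class I, had 9, 15 and 12 UMIs and 1.79 (0.44 to 3.23).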
